A study of Mus musculus with 9 samples.

Results

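The comparison of mice given DSS and DPG (DSS+DPG) with untreated mice (UN) asked how far the expression of wound healing genes in the colon stood from the untreated level after 7 days of DSS with DPG. It was chosen by group, as the 3 DSS+DPG arrays and the 3 UN arrays, so 6 of the 9 arrays of the series, and all 84 genes of the panel were members. All mice were C57bl6J females of 8 to 9 weeks. DSS+DPG mice drank 3% dextran sulfate sodium (DSS) and were gavaged with 8 mg/kg/day dipotassium glycyrrhizate (DPG) in PBS, and UN mice drank regular water. The other 3 arrays held mice given 3% DSS without DPG. For each group the colon RNA of 5 mice was combined into 1 pool, and that pool was run on 3 arrays, so the p-values below measure the spread between repeat arrays, not the spread between mice. No group received DPG without DSS, so what DPG does in a healthy colon cannot be read from these arrays.

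DSS is a detergent-like polysaccharide that damages the colonic epithelium and lets luminal bacteria reach the mucosa, where macrophages, neutrophils and T cells answer with cytokines and chemokines. Healing then depends on migration and division of epithelial cells, on growth factors from fibroblasts, and on collagens, integrins and proteases that rebuild the matrix beneath the epithelium. DPG is a salt of glycyrrhizin, a licorice constituent that binds the alarm protein HMGB1.

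Levels are given as delta Ct, the threshold cycle of a gene minus the mean threshold cycle of Actb, B2m, Gapdh, Gusb and Hsp90ab1 on the same array. It is a log2 scale on which 1 cycle is 2-fold and a smaller value is a higher level. Differences are DSS+DPG minus UN on the log2 scale, positive where the level was higher in DSS+DPG, with the standard error (SE) and the adjusted p of limma, and a gene was called at an adjusted p under 0.05. Of the 84 genes 82 were tested, because Ctsg and Fga gave no Ct below 38 cycles on any of the 6 arrays. Colon tissue was represented by the panel's epithelial and muscle genes. Cdh1, the adherens junction protein of epithelium, came up at 24.98, 24.97 and 24.96 cycles in DSS+DPG and at 22.83, 22.8 and 22.7 cycles in UN, and Acta2, smooth muscle actin, at 24, 23.95 and 24.01 cycles in DSS+DPG and at 20.65, 20.66 and 20.64 cycles in UN. On every array of both groups 77 of the 84 genes had a Ct under 35.

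Relative to UN, the DSS+DPG colon held more RNA of 8 of the 13 cytokines and chemokines. It held less RNA of most collagens, of contractile proteins and of the fibroblast growth factors measured. Of the 82 genes tested 18 were called higher in DSS+DPG (22%) and 57 lower (69.5%), and 7 were not called. At least 3.5-fold higher were 11 genes (13.4%) and at least 3.5-fold lower were 14 (17.1%), and the arrays of the 2 groups did not overlap for 77 genes (93.9%). The median difference over the panel was -0.69, with a range of -3.42 to 4.52. Because the call rate was this high, calls within a gene group are read against it below, and sizes carry more than calls. The split of higher and lower calls depended on the reference. It was 25 higher and 46 lower against the panel median Ct, and 11 higher and 70 lower against the reverse transcription control wells.

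**Figure D1:**
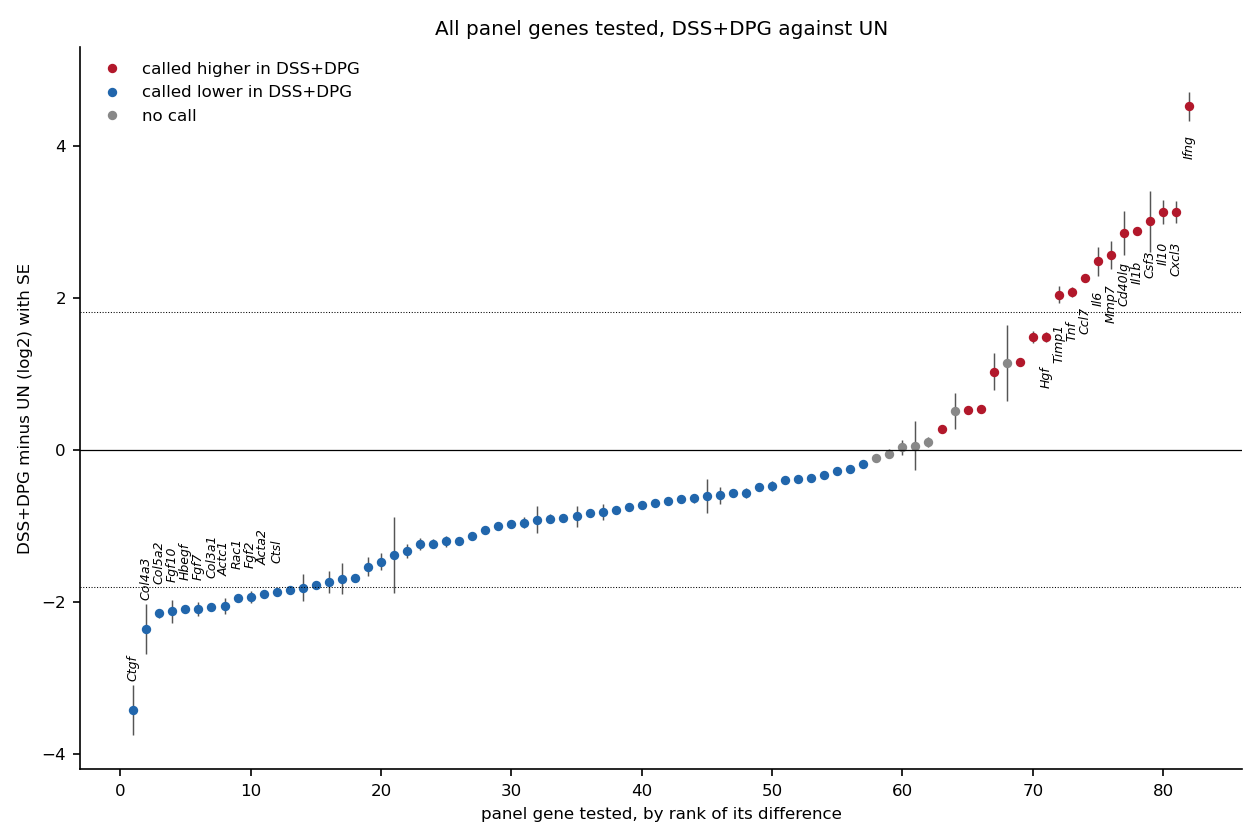
The 82 panel genes tested, ranked by their DSS+DPG minus UN difference (vertical axis, log2, bars are the standard error of limma), with the 12 largest rises and 12 largest falls named and dotted lines at 3.5-fold. Plg, with no Ct in DSS+DPG, is plotted from wells set to 38 cycles. The points run from Ctgf at -3.42 to Ifng at 4.52, and 57 of them are called lower against 18 called higher.

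The reference genes themselves came up later in the DSS+DPG arrays, and every difference below includes this delay. Actb, cytoskeletal actin, had Ct 21.42, 21.32 and 21.38 in DSS+DPG and 19.69, 19.65 and 19.69 in UN. Gapdh of glycolysis, Gusb of the lysosome and the chaperone Hsp90ab1 were later in DSS+DPG by 1.77, 1.65 and 1.48 cycles. B2m, the light chain of class I MHC, was later by only 0.61 cycles. No array of one group reached the other for any of the 5, and each had an exact two-sided permutation p of 0.1, the smallest that 3 arrays against 3 can give. Their mean stood at 23.44 ± 0.01 cycles in DSS+DPG and 22.00 ± 0.01 cycles in UN (SD, n = 3 arrays each). The panel median Ct was 29.64 in DSS+DPG and 27.87 in UN. The wells that follow the reactions did not share this delay. The reverse transcription control wells averaged 23.73, 23.74 and 23.73 cycles in DSS+DPG and 24.02, 23.95 and 23.98 cycles in UN, slightly earlier in DSS+DPG (exact permutation p = 0.1). The positive PCR control wells averaged 20.94 cycles in DSS+DPG and 20.69 cycles in UN, with overlapping arrays (exact permutation p = 0.3), and the genomic DNA control well gave no Ct on any array. Taking the mean of the 5 housekeeping genes as reference therefore raised every DSS+DPG minus UN difference by 1.44 over that on raw Ct. Where the delay came from was not tested.

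**Figure D2:**
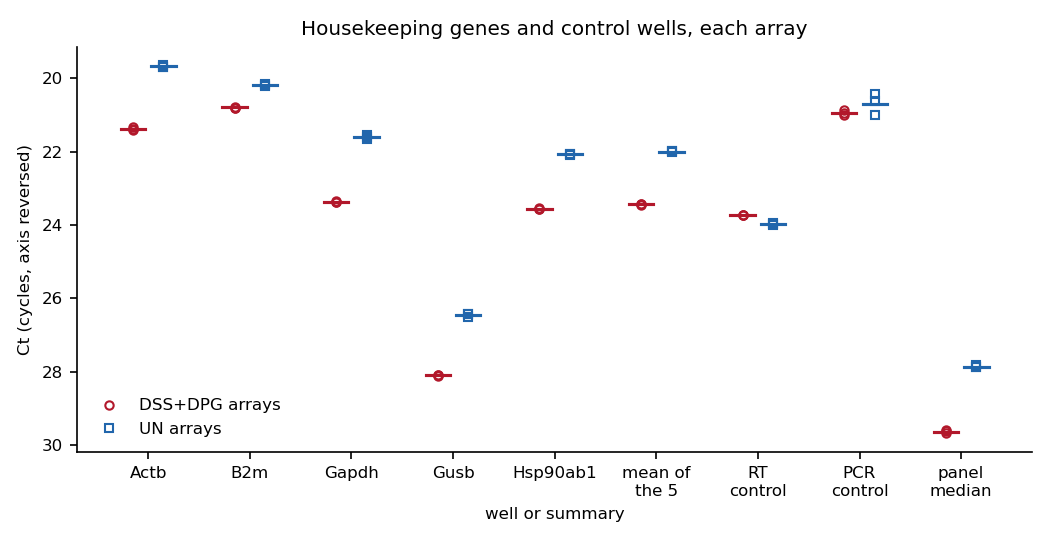
Ct (cycles, axis reversed so that up is more template) of the 5 housekeeping genes, their mean, the reverse transcription (RT) and positive PCR control wells and the panel median, with each array as a point and group means as lines. The DSS+DPG arrays lie later than the UN arrays for every housekeeping gene, most for Gapdh (1.77 cycles) and least for B2m (0.61 cycles), while the RT control lies 0.25 cycles earlier.

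B2m therefore stood 1.04 above the other 4 housekeeping genes in DSS+DPG relative to UN, and Actb, Gapdh, Gusb and Hsp90ab1 lay between -0.41 and -0.05 against the rest. Calls were repeated under 12 references in all. Called higher under all 12 were Ccl7, Cd40lg, Csf3, Cxcl3, Ifng, Il10, Il1b, Il6, Mmp7, Timp1 and Tnf, which are 11 of the 18 genes called higher. Called lower under all 12 were 46 of the 57. The other 11 were Angpt1, Cxcl11, Igf1, Il6st, Itga2, Itga4, Mapk3, Mmp2, Mmp9, Plau and Vegfa, of which Itga2, Mapk3 and Vegfa changed direction under at least 1 reference. On raw Ct, 11 of the genes called higher had an earlier Ct on every DSS+DPG array than on every UN array. All 57 genes called lower had a later Ct on every DSS+DPG array, which adds nothing to those calls. The housekeeping mean was 1.44 cycles later in DSS+DPG, so a gene called lower had to be later still on average. With no reference, 67 genes of the panel were called lower. The bar chart of calls by reference shows that the number of genes at least 3.5-fold lower moved most, being 14 with the mean of the 5 genes, 8 without B2m, 3 against Gapdh alone and 57 against the reverse transcription control.

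**Figure D3:**
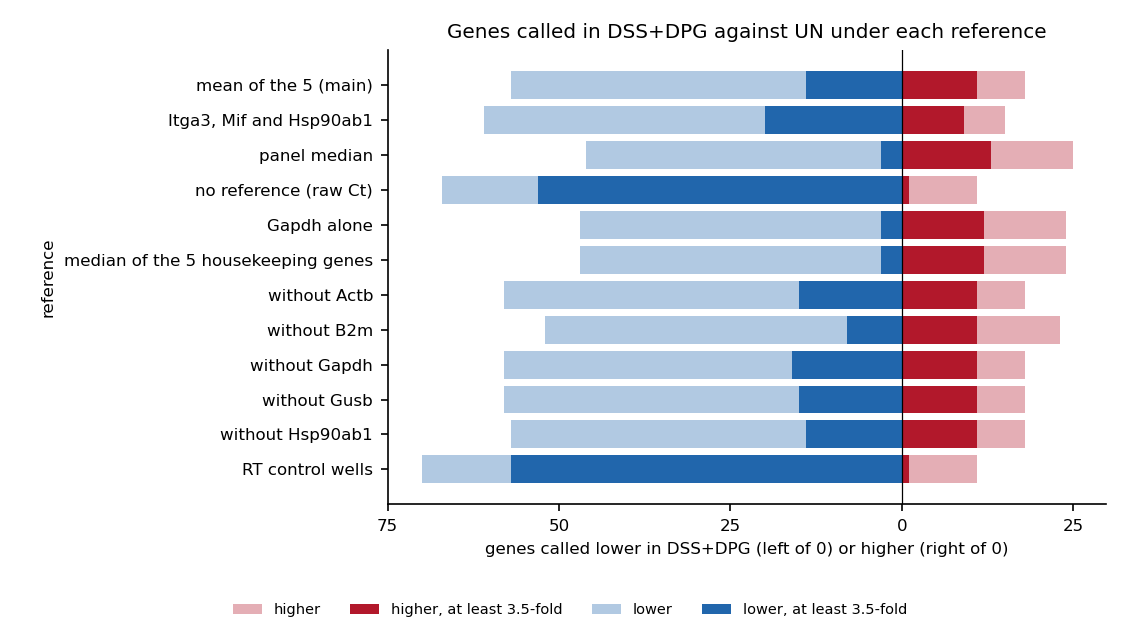
Number of genes called lower (left of 0) and higher (right of 0) in DSS+DPG than in UN under each of 12 references, with the darker part at least 3.5-fold. Lower calls range from 46 to 70 and higher calls from 11 to 25.

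Inflammation was described by 16 genes, the 13 cytokines and chemokines of the panel with Tnf, Csf3 and Ptgs2. Of these 10 were called higher in DSS+DPG, 3 lower and 3 not called, against 22% and 69.5% of the panel, and 9 were at least 3.5-fold higher. Their median difference was 2.17 with a range of -1.38 to 4.52, beside -0.69 for the panel. In bulk tissue a change in the number of cells of a type and a change in the RNA per cell cannot be told apart, here and in every group below.

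The largest difference of the panel was that of Ifng, the T cell and NK cell cytokine that activates macrophages. Its delta Ct was 8.07, 7.66 and 7.87 in DSS+DPG and 12.52, 11.95 and 12.69 in UN. The highest UN level was thus still far below the lowest DSS+DPG level, and the difference was 4.52 (SE 0.19, 22.9-fold, adjusted p = 1.2e-07). Il10, which restrains macrophages and T cells, had delta Ct 9.86, 10.34 and 10.22 in DSS+DPG and 13.53, 13.04 and 13.23 in UN, a difference of 3.13 (SE 0.15, 8.73-fold, adjusted p = 2.8e-07). The UN wells of Il10 were all late, at 35.52, 35.03 and 35.25 cycles. Cd40lg, by which activated helper T cells stimulate B cells and macrophages, had delta Ct 9.84, 10.67 and 10.44 in DSS+DPG and 13.32, 12.69 and 13.50 in UN. The groups lay apart by 2.85 (SE 0.29, 7.23-fold, adjusted p = 2.4e-05), but its wells were late, with UN at 34.68 to 35.52 cycles.

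The innate cytokines were all called higher, 3 of 3, where 22% of the panel was. Il1b, the inflammasome-processed cytokine of macrophages and neutrophils, was the most tightly measured, with delta Ct 5.31, 5.29 and 5.27 in DSS+DPG and 8.17, 8.17 and 8.15 in UN, and it was 7.33-fold higher in DSS+DPG (2.87, SE 0.02, adjusted p = 2.6e-11). Il6, the acute phase cytokine, had delta Ct 10.75, 9.93 and 10.37 in DSS+DPG and 12.66, 13.03 and 12.80 in UN. Its DSS+DPG arrays spread more than those of Il1b but stayed clear of UN, at a difference of 2.48 (SE 0.19, 5.58-fold, adjusted p = 5.1e-06). Tnf, the macrophage cytokine targeted in the treatment of colitis, had delta Ct 6.34, 6.58 and 6.45 in DSS+DPG and 8.61, 8.50 and 8.49 in UN. It was 4.22-fold higher in DSS+DPG (2.08, SE 0.06, adjusted p = 2.4e-08).

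The chemokines that draw neutrophils did not behave alike. Cxcl3 had delta Ct 9.61, 9.15 and 9.37 in DSS+DPG and 12.28, 12.75 and 12.49 in UN, a difference of 3.13 (SE 0.14, 8.75-fold, adjusted p = 1.7e-07). Csf3, the growth factor of neutrophils, had delta Ct 11.35, 11.98 and 11.87 in DSS+DPG and 15.71, 14.02 and 14.49 in UN. One UN array (Ct 37.7, against 36.01 and 36.51 on the others) widened its spread, and the difference was 3.01 (SE 0.40, 8.04-fold, adjusted p = 0.00014). Cxcl5, an epithelial neutrophil chemokine, had delta Ct 4.70, 4.58 and 4.68 in DSS+DPG and 6.24, 6.00 and 6.16 in UN. It was called 2.79-fold higher (1.48, SE 0.08, adjusted p = 4.1e-07), yet its raw Ct was 28.15, 28.01 and 28.12 in DSS+DPG and 28.23, 27.99 and 28.18 in UN, so its difference came from the reference. Cxcl1, the keratinocyte chemokine, overlapped fully, with delta Ct 9.66, 9.95 and 9.78 in DSS+DPG and 9.96, 9.67 and 9.86 in UN, and it was not called (0.03, 95% interval -0.20 to 0.26, adjusted p = 0.75).

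Monocyte chemokines split in the same manner. Ccl7, which recruits monocytes through Ccr2, had delta Ct 4.65, 4.54 and 4.59 in DSS+DPG and 6.87, 6.77 and 6.93 in UN, a difference of 2.26 (SE 0.05, 4.80-fold, adjusted p = 3.1e-09). Ccl12 had delta Ct 6.00, 6.15 and 6.07 in DSS+DPG and 6.03, 5.94 and 6.10 in UN. These arrays overlapped, and Ccl12 was not called (-0.05, 95% interval -0.19 to 0.09, adjusted p = 0.45). The 2 genes without a difference, Cxcl1 and Ccl12, took their direction from the reference. Against Gapdh alone they were called higher (0.36 and 0.28), and on raw Ct they were called lower (-1.41 and -1.49).

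Lower members of the list in DSS+DPG numbered 3. Ptgs2, the inducible cyclooxygenase of prostaglandin synthesis, had delta Ct 7.62, 7.16 and 7.45 in DSS+DPG and 6.61, 6.59 and 6.57 in UN, a difference of -0.82 (SE 0.10, 1.77-fold lower, adjusted p = 8.9e-05). Il4, the cytokine of type 2 helper T cells, had raw Ct 35.22, 34.43 and 34.84 in DSS+DPG and 32.52, 32.43 and 32.47 in UN, and its mean delta Ct was 11.39 in DSS+DPG and 10.47 in UN. On both scales the arrays lay apart, and Il4 was 1.89-fold lower in DSS+DPG (-0.92, SE 0.17, adjusted p = 0.0011). Cxcl11, a chemokine induced by interferon, was the only gene of the list whose arrays overlapped and which was still called, with delta Ct 13.94, 11.73 and 13.37 in DSS+DPG and 11.49, 11.80 and 11.60 in UN. Its call (-1.38, SE 0.51, adjusted p = 0.03) was kept in 15 of the 28 alternatives that gave it a value. Il2, the T cell growth factor, was at the edge of detection, with Ct 39.49, 37.56 and 38.1 in DSS+DPG and 36.6, 37.27 and 36.92 in UN, and it was not called (adjusted p = 0.067).

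**Figure D4:**
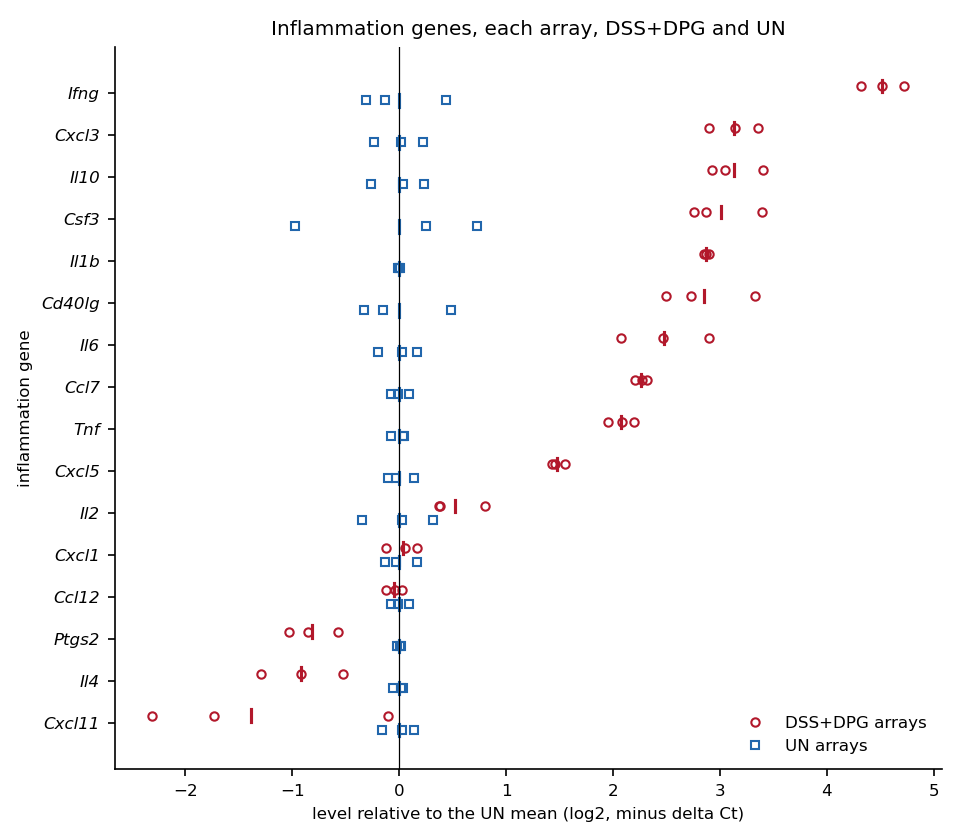
Each array's level of the 16 inflammation genes relative to the UN mean (log2, minus delta Ct), with DSS+DPG arrays as circles above the UN arrays as squares and group means as ticks. The DSS+DPG arrays of the 10 genes called higher lie right of all UN arrays, those of Cxcl1 and Ccl12 lie on them, and 1 of the 3 Cxcl11 arrays lies among the UN arrays.

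Promoter sequence is shown for 2 neighbouring chemokine genes that ended differently, Cxcl3 and Cxcl1, and for Il6, because members of the inflammation list that moved together are known in part as targets of NF-kB, the transcription factor that inflammatory signals release into the nucleus. The bases are the 120 before the transcription start in the RefSeq promoter table for the mouse (build GRCm38.p6), which matched 54 of the 84 genes by symbol. Capitals mark matches to the NF-kB consensus on either strand, with overlapping matches joined. Cxcl3 lies at chr5:90785981-90786100 on the plus strand, Cxcl1 at chr5:90891125-90891244 on the plus strand and Il6 at chr5:30012994-30013113 on the plus strand.
Cxcl3: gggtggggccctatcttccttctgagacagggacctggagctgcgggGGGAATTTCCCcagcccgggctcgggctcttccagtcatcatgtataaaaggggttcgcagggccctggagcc
Cxcl1: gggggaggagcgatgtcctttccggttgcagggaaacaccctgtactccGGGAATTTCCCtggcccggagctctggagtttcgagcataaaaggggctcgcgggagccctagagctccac
Il6: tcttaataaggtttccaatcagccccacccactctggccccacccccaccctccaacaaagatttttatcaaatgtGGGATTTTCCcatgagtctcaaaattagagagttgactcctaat
Counted from the start, the capitals begin at position -73 in Cxcl3, -71 in Cxcl1 and -44 in Il6, and the marked letters of Cxcl3 and Cxcl1 are identical although Cxcl3 was 8.75-fold higher in DSS+DPG and Cxcl1 was not called. Within 250 bases before a start, 3 of 12 matched genes called higher held the motif, 3 of 35 called lower and 1 of 5 not called. It was held by 7 of the 54 matched panel genes (13%) and by 8.23% of the 27025 genes of the table. Il1b, Tnf and Ifng, which were called higher, had no match in that window. A match of letters is a description and not a binding site.

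Beside the cytokines, a metalloproteinase and an inhibitor of such enzymes were among the 12 largest rises. Mmp7, matrilysin, an epithelial metalloproteinase, had delta Ct 8.86, 9.62 and 9.37 in DSS+DPG and 11.65, 12.03 and 11.86 in UN, a difference of 2.56 (SE 0.19, 5.91-fold, adjusted p = 3.1e-06). Timp1, the inhibitor of metalloproteinases, had delta Ct 6.50, 6.39 and 6.45 in DSS+DPG and 8.73, 8.23 and 8.50 in UN. It was 4.11-fold higher in DSS+DPG (2.04, SE 0.11, adjusted p = 5.7e-07). The remaining metalloproteinase genes were called lower, the interstitial collagenase Mmp1a at -1.54 and the gelatinases Mmp2 and Mmp9 at -0.40 and -0.61. The Mmp9 call was kept in 19 of 29 alternatives and was lost without any 1 of the 3 UN arrays.

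The last of the 12 rises was Hgf, the mesenchymal growth factor that drives epithelial migration, with delta Ct 5.20, 5.43 and 5.33 in DSS+DPG and 6.74, 6.88 and 6.79 in UN (1.48, SE 0.06, 2.80-fold, adjusted p = 1.2e-07). Its raw Ct, like that of Cxcl5, barely separated the groups, at 28.65, 28.86 and 28.77 in DSS+DPG and 28.73, 28.87 and 28.81 in UN. Plaur, the urokinase receptor, was 2.23-fold higher (1.16), Tgfb1, the cytokine of matrix deposition, 1.44-fold higher (0.53) and Itga3, a laminin-binding integrin chain, 1.21-fold higher (0.27). Mif, a macrophage cytokine, was called 2.04-fold higher (adjusted p = 0.0039), with 1 array apart at Ct 23.01 against 23.93 and 24.03 in DSS+DPG, and Ct 23.21, 23.28 and 23.25 in UN. Itga3, Tgfb1 and Plaur were called lower on raw Ct.

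Below the untreated level, the largest fall was that of Ctgf, the matricellular protein induced by TGF beta and tension. It had delta Ct 7.06, 5.57 and 6.69 in DSS+DPG and 3.05, 3.05 and 2.96 in UN. The DSS+DPG arrays spread over more than 1 cycle but none came near UN, and the difference was -3.42 (SE 0.33, 10.7-fold lower, adjusted p = 1.9e-05). Of the TGF beta and CCN genes, Wisp1 and the coreceptor Tgfbr3 were also lower, at -0.88 and -0.96, while Tgfb1 was higher.

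The structural matrix genes of the panel are 9 collagen chains and Vtn. Of these 10 genes 9 were called lower and none higher, against 69.5% and 22% of the panel. At least 2-fold lower were 8 of them, as were 29 of the 82 panel genes tested, and the median was -1.69 beside -0.69 for the panel. Col3a1, the fibrillar collagen of young granulation tissue, had delta Ct 0.52, 0.60 and 0.55 in DSS+DPG and -1.54, -1.50 and -1.49 in UN. It was 4.19-fold lower in DSS+DPG (-2.07, SE 0.04, adjusted p = 1.4e-09). Col5a2, which helps to nucleate fibrils, had delta Ct 5.26, 5.35 and 5.29 in DSS+DPG and 3.25, 3.08 and 3.12 in UN, a difference of -2.15 (SE 0.06, 4.44-fold lower, adjusted p = 1.2e-08). Col4a3, a basement membrane chain, had delta Ct 11.64, 12.93 and 12.27 in DSS+DPG and 9.93, 9.85 and 9.99 in UN. It was 5.12-fold lower (-2.36, SE 0.33, adjusted p = 0.00017), from late DSS+DPG wells at 35.09 to 36.36 cycles.

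Among the other matrix genes Col1a2, Col5a3, Col4a1, Col5a1 and Col14a1 were called lower at -1.68, -1.70, -1.33, -1.20 and -0.97. Vtn, vitronectin, a plasma and matrix adhesion protein, was 3.59-fold lower (-1.84), with delta Ct 9.72, 9.60 and 9.66 in DSS+DPG and 7.87, 7.79 and 7.79 in UN. Col1a1, which forms type I collagen together with Col1a2, was the exception. Its delta Ct was 2.93, 2.87 and 2.91 in DSS+DPG and 3.05, 3.10 and 2.87 in UN, the arrays overlapped, and it was not called (0.10, 95% interval -0.04 to 0.25, adjusted p = 0.13). Col1a1 was called higher against Gapdh alone and lower on raw Ct, whereas the other 9 were called lower under all 12 references. The 7 fibroblast markers of the panel, which share 6 collagens with this class, moved with it, 6 lower and none higher. Their median was -1.68 beside -0.69 for the panel, of which 69.5% was called lower and 22% higher.

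**Figure D5:**
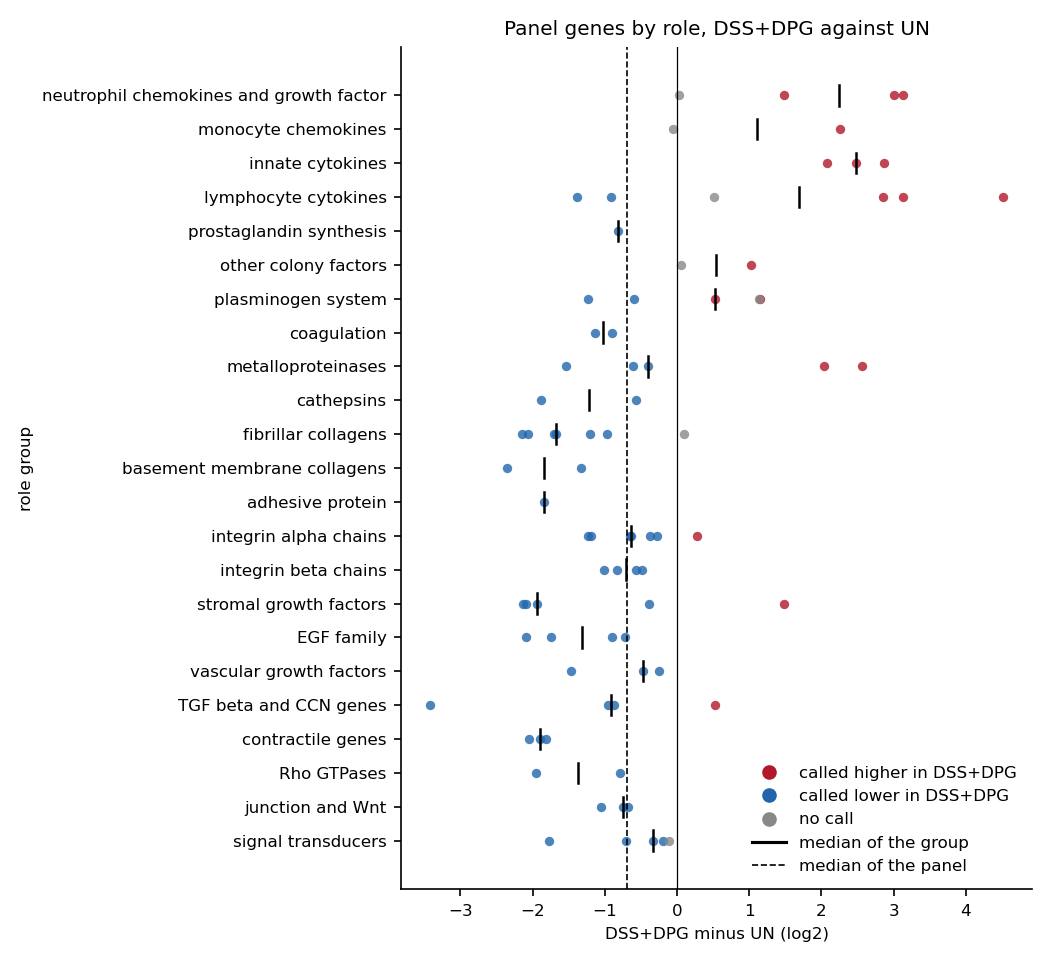
DSS+DPG minus UN (horizontal axis, log2) of the panel genes tested, in rows by role, with red points called higher, blue points called lower, grey points not called and a black tick at each group's median. Medians lie from -1.93 for stromal growth factors to 2.48 for innate cytokines, and the dashed line marks the panel median of -0.69.

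All 3 contractile genes were called lower, each at least 3.5-fold, where 69.5% of the panel was lower and 17.1% at least 3.5-fold lower. Their median was -1.90 beside -0.69 for the panel. Acta2 had delta Ct 0.55, 0.52 and 0.57 in DSS+DPG and -1.34, -1.33 and -1.38 in UN, a difference of -1.90 (SE 0.03, 3.72-fold lower, adjusted p = 6.0e-10). Actc1, the actin of heart muscle, had delta Ct 9.93, 9.88 and 9.91 in DSS+DPG and 8.10, 7.69 and 7.78 in UN, and it was 4.14-fold lower (-2.05, SE 0.10, adjusted p = 3.4e-07). Tagln, the smooth muscle protein transgelin, was 3.52-fold lower (-1.82, SE 0.18), just past the 3.5-fold line. These 3 genes also made up the smooth muscle list used here, although Actc1 is the actin of heart muscle. All 3 were called lower under each of the 12 references, but the size depended on the reference. Against Gapdh alone Acta2, Actc1 and Tagln stood at -1.57, -1.72 and -1.49, each short of 3.5-fold.

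The promoter of Actc1 is shown because contractile genes are known targets of serum response factor, which binds the CArG box. The stretch is the 120 bases before the start at chr2:114052876-114052995 on the minus strand (GRCm38.p6, RefSeq), with the match to the CArG box in capitals.
Actc1: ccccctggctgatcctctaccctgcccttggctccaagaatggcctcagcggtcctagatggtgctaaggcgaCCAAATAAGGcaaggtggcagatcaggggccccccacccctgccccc
The box begins at position -47 from the start, and the capitals mark it alone. Within 250 bases before a start it was found in 2 of the 35 matched genes called lower and in 0 of the 12 called higher. It was found in 2 of the 54 matched panel genes (3.7%) and in 1.62% of the genes of the table. The window of Acta2 held none, which says only that these letters are not in that window.

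The cytoskeletal regulator Rac1, the GTPase of lamellipodia, fell as far as the contractile genes. It had delta Ct 1.35, 1.33 and 1.34 in DSS+DPG and -0.57, -0.64 and -0.63 in UN, a difference of -1.95 (SE 0.03, 3.87-fold lower, adjusted p = 6.0e-10). Rhoa, the GTPase of stress fibres, was 1.73-fold lower (-0.79). Ctsl, the lysosomal cysteine protease cathepsin L, had delta Ct 3.24, 3.17 and 3.27 in DSS+DPG and 1.38, 1.34 and 1.33 in UN, 3.67-fold lower (-1.88, SE 0.03, adjusted p = 1.4e-09). None of these 3 had overlapping arrays, and neither did 93.9% of the panel genes tested.

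Of the 5 growth factors of the stroma 4 were called lower and Hgf higher, against 69.5% and 22% of the panel. Their median was -1.93 beside -0.69 for the panel. The growth factor class as a whole, with 11 of 17 called lower and a median of -0.48, lay near the panel. Fgf7, the keratinocyte growth factor made by fibroblasts for epithelium, had delta Ct 7.33, 7.72 and 7.57 in DSS+DPG and 5.47, 5.45 and 5.43 in UN, 4.26-fold lower (-2.09, SE 0.09, adjusted p = 1.3e-07). Fgf10, its close relative acting on the same receptor, had delta Ct 8.13, 8.71 and 8.59 in DSS+DPG and 6.53, 6.22 and 6.30 in UN, 4.37-fold lower (-2.13, SE 0.15, adjusted p = 2.7e-06). Fgf2, basic fibroblast growth factor, had delta Ct 9.43, 9.16 and 9.27 in DSS+DPG and 7.40, 7.32 and 7.34 in UN, 3.82-fold lower (-1.93, SE 0.08, adjusted p = 1.1e-07). In each of the 3 the DSS+DPG arrays spread more than the UN arrays. They did not reach the UN arrays, and 93.9% of the panel genes tested had no overlap. Igf1 was 1.30-fold lower (-0.38), a call lost against the panel median and against Gapdh alone.

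The 3 ligands of the epidermal growth factor receptor and the receptor itself were called lower, where 69.5% of the panel was, with a median of -1.32 beside -0.69 for the panel. Hbegf, the heparin-binding ligand released at wounds, had delta Ct 6.72, 6.88 and 6.81 in DSS+DPG and 4.75, 4.70 and 4.69 in UN, 4.26-fold lower (-2.09, SE 0.05, adjusted p = 3.1e-09). Egf was 3.34-fold lower (-1.74), Tgfa 1.65-fold lower (-0.72) and the receptor Egfr 1.87-fold lower (-0.90). The vascular factors Pdgfa, Angpt1 and Vegfa were lower at -1.47, -0.48 and -0.25, but Vegfa stood at 0.08 and was not called against Gapdh alone.

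Adhesion and signalling genes fell by less. Of 12 adhesion genes 11 were called lower and 1 higher, against 69.5% and 22% of the panel, but the median of -0.64 lay at the panel's -0.69 and only 3 fell at least 2-fold. These were Itga5 and Itga1, chains of fibronectin and collagen receptors, at -1.23 and -1.19, and the common beta chain Itgb1 at -1.01. Cdh1 was 1.69-fold lower (-0.75) and its partner Ctnnb1, beta-catenin, 1.60-fold lower (-0.68). Of the 11 signalling genes 10 were called lower, again beside 69.5% of the panel, and the median of -0.82 lay near the panel's -0.69. Among them was Wnt5a, a noncanonical Wnt ligand of wound-associated stroma, at -1.05. Stat3 was not called (-0.11, adjusted p = 0.056). The epithelial markers Cdh1, Itga6 and Itgb6 were lower and Itga3 higher, with a median of -0.56. This lay near the panel, with 69.5% lower, 22% higher and a median of -0.69.

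In the plasminogen and coagulation genes, the activators Plat and Plau were called lower at -1.24 and -0.60, tissue factor F3 at -1.14 and the transglutaminase F13a1, carried by macrophages and platelets, at -0.90. Plg had no Ct on any DSS+DPG array and a Ct of 37.1 on 1 UN array only, and Fga none on any array of either group. Ctsg, the cathepsin of neutrophil and mast cell granules and the panel's only mast cell marker, had no Ct in DSS+DPG and 38.15 on 1 UN array. Of the 4 markers of neutrophils and macrophages Il1b and Plaur were higher and Mmp9 and F13a1 lower, with a median of 0.28. Of the 4 lymphocyte markers Ifng and Cd40lg were higher, Il4 was lower and Il2 was not called. Beside both marker lists, 22% of the panel was called higher and 69.5% lower.

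Set beside the DSS mice, which share the UN arrays as reference and are given as description only, the inflammation genes called higher stood mostly below their DSS level. Relative to UN, Cxcl3 stood at 3.13 in DSS+DPG and 9.68 in DSS, Il6 at 2.48 in DSS+DPG and 8.33 in DSS, and Csf3 at 3.01 in DSS+DPG and 7.98 in DSS. Il1b stood at 2.87 in DSS+DPG and 7.27 in DSS, Cxcl5 at 1.48 in DSS+DPG and 5.07 in DSS, and Il10 at 3.13 in DSS+DPG and 5.52 in DSS. For Ccl7 the differences were 2.26 in DSS+DPG and 4.27 in DSS, for Tnf 2.08 in DSS+DPG and 3.69 in DSS, and for Ifng 4.52 in DSS+DPG and 5.21 in DSS. Ifng was thus the nearest to its DSS level among these and Cxcl3 the farthest in cycles. Of the 18 genes called higher the DSS mean was above DSS+DPG in 14 and below it in Cd40lg, Itga3, Mif and Mmp7. The housekeeping mean was 23.44 cycles in DSS+DPG and 22.23 cycles in DSS, so the order of DSS+DPG and DSS depends on the reference. Raw Ct of Mmp7 was 32.31, 33.05 and 32.81 in DSS+DPG and 32.25, 32.13 and 32.21 in DSS. For Itga3 it was 27.55, 27.57 and 27.57 in DSS+DPG and 26.66, 26.57 and 26.61 in DSS. Both were thus earlier in DSS on raw Ct. For Cd40lg the difference from UN was 2.85 in DSS+DPG and 1.31 in DSS. Its raw Ct overlapped between these groups, at 33.29, 34.1 and 33.88 in DSS+DPG and 34.5, 33.77 and 34.01 in DSS. For Mmp7 the difference from UN was 2.56 in DSS+DPG and 1.88 in DSS.

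For the 57 genes below the untreated level in DSS+DPG, the DSS mice, a parallel group, lay on either side of it. In 32 the DSS mean lay above UN and in 25 below. No size limit was set, so Itgb3, at 0.01 in DSS relative to UN, counted as above. The side of UN in DSS also depends on the reference, because the housekeeping genes moved apart. B2m averaged 19.09 cycles in DSS and 20.19 in UN, and Hsp90ab1 23.16 cycles in DSS and 22.08 in UN. Above UN in DSS were Vtn (-1.84 in DSS+DPG, 2.67 in DSS), Fgf2 (-1.93 in DSS+DPG, 2.01 in DSS), Fgf7 (-2.09 in DSS+DPG, 1.92 in DSS), Col3a1 (-2.07 in DSS+DPG, 1.48 in DSS) and Ptgs2 (-0.82 in DSS+DPG, 3.30 in DSS), all relative to UN. Of those below UN in DSS, 16 genes were further below UN in DSS+DPG than in DSS, among them Ctgf (-3.42 in DSS+DPG, -0.77 in DSS), Hbegf (-2.09 in DSS+DPG, -0.24 in DSS), Ctsl (-1.88 in DSS+DPG, -0.20 in DSS), Rac1 (-1.95 in DSS+DPG, -1.14 in DSS) and Acta2 (-1.90 in DSS+DPG, -1.49 in DSS). The 16 were counted at any size and also held Rhoa (-0.79 in DSS+DPG, -0.77 in DSS) and Itga2 (-0.28 in DSS+DPG, -0.18 in DSS). Against the 5 housekeeping genes Actc1 was nearer to UN in DSS+DPG than in DSS (-2.05 in DSS+DPG, -3.15 in DSS). Its raw Ct was not, at 33.38, 33.31 and 33.35 in DSS+DPG and 33.22, 33.26 and 33.24 in DSS. Col4a3 stood at -2.36 in DSS+DPG and -2.58 in DSS, but these arrays overlapped, with delta Ct 11.64, 12.93 and 12.27 in DSS+DPG and 12.08, 12.88 and 12.56 in DSS. Here too the order of DSS+DPG and DSS depends on the reference. Of the 82 genes tested, 29 were called and at least 2-fold below UN in DSS+DPG, and 15 were called and at least 2-fold above.

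The repeat arrays of a group were close, with a median SD of Ct over genes of 0.07 cycles in DSS+DPG and 0.06 cycles in UN. The third array lay between the first and second for 66 of 81 genes in DSS+DPG (81.5%), 72 of 83 in DSS (86.8%) and 58 of 81 in UN (71.6%), where arrays without an order would give 33.3%. Its median distance from the mean of the other 2 was 0.02 cycles in DSS+DPG and 0.015 cycles in UN, beside 0.065 to 0.1 cycles for the first and second arrays. Without the third array of all groups 18 genes were called higher and 54 lower.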

How the data were processed

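Per the labels and the methods, RNA from 5 colons a group was combined, reverse transcribed and run on 3 SYBR green PCR arrays of 84 mouse wound healing genes. The authors deposited unnormalized Ct values, which are on a log2 scale, and, from the array maker's web software (version not given in the sources used here), group averages of Ct and delta Ct, also log2. Deposited averages matched the mean raw Ct within 0.1 cycle in 96 of 96 wells of each group. The deposited delta Ct used Itga3, Mif and Hsp90ab1 as reference (their geometric mean), not the 5 housekeeping genes named in the methods, which were used here. The authors' folds, p-values and false discovery rates (7 sheets) were not used, and no column was left unmapped.

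Wells with no Ct or above 38 were set to 38, and a gene at 38 on all arrays of both groups was not tested. The negative of delta Ct entered a linear model for the 9 arrays (limma 3.58.1 under R 4.3.3), contrast DSS+DPG minus UN, adjusted by Benjamini-Hochberg over 82 genes and called at adjusted p under 0.05. The fold of 3.5 is that of the methods. Reference and control wells were compared by two-sided exact permutation tests. The script was tested on simulated data. Alternatives (30) were other references, limits, filters, tests, a replicate block and leaving out arrays. Of these 2, without the third arrays and with reverse transcription wells as reference, were chosen after seeing the data.

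Full values are given for the 12 largest rises and 12 largest falls among genes called without overlap, for the 16 inflammation genes and for genes with a well at the limit. Other genes are named by role. Members and lists were chosen with earlier results of these data known. Promoters came from RefSeq (GRCm38.p6). Python 3.11.15 with matplotlib 3.10.9 drew the figures. Some single genes are counted but their results are not reported here. Precision is limited by 3 arrays of 1 pool per group, and each Ct is a cycle number without a read depth.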

Additional observations from a re-analysis of the deposited data

How the results depend on the processing

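Against the mean of the 5 housekeeping genes, 18 genes were higher and 57 lower in DSS+DPG. Raw Ct with no reference gave 11 higher, 1 at least 3.5-fold higher, 53 at least 3.5-fold lower, 6 inflammation genes lower and a panel median of -2.13, and the reverse transcription control as reference gave 11, 1, 57, 7 and -2.38. Genes at least 3.5-fold lower were 3 against the panel median, Gapdh alone or the median of the housekeeping genes (which is Gapdh), and 8 without B2m. The panel median was -1.11 against Itga3, Mif and Hsp90ab1 (5 inflammation genes lower), -0.36 against the panel median, -0.36 against Gapdh alone and the housekeeping median, and -0.75, -0.48, -0.77 and -0.74 without Actb, B2m, Gapdh and Gusb. With only genes whose every Ct was below 35, 7 genes were at least 3.5-fold higher, 6 inflammation genes higher and 1 lower. At 2-fold or more 29 genes were lower. Leaving out single arrays gave 18 to 19 genes higher, 55 to 58 lower, 11 at least 3.5-fold higher, 13 to 17 at least 3.5-fold lower, 10 to 11 inflammation genes higher, 2 to 3 lower and a panel median of -0.71 to -0.69.

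Of 916 values of named genes under alternatives, 869 were counted as unchanged. A called gene had to keep its direction and call for this, and a gene not called had only to stay without a call. Cxcl1, for instance, was 0.03 in the main setting and -0.03 without Actb. Ccl12 became higher, at 0.28, 0.28, 0.28 and 0.16, against the panel median, Gapdh, the housekeeping median and the mean without B2m. Cxcl1 became lower at -0.39 against Itga3, Mif and Hsp90ab1, at -1.41 on raw Ct and at -1.66 against the reverse transcription control. Cxcl5 and Hgf became lower at -0.21 and -0.21 against that control, and Il2 at -0.92 on raw Ct and -1.17 against that control. These shifts follow from the reference, since each reference adds 1 constant per array. Cxcl11 lost its call without DSS+DPG replicate 1 (-0.92, adjusted p = 0.0860), DSS+DPG replicate 3 (-1.21, adjusted p = 0.0882) or any UN replicate (adjusted p 0.0537 to 0.0754), and with a limit of 35 cycles its difference was 0.07 (adjusted p = 0.599), so the fall was gone.

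The replicate numbers did not pair the arrays, with correlations of deviations of -0.18, -0.20 and -0.05 between DSS+DPG and UN arrays of the same number. The replicate block gave 19 genes higher, 57 lower, 11 and 14 at least 3.5-fold higher and lower, 10 and 3 inflammation genes higher and lower and a panel median of -0.69. Wells past 35 cycles limit Csf3, Cd40lg, Il10, Il6, Il4, Col4a3, Cxcl11 and Il2, besides Plg, Ctsg and Fga.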
